A study of Drosophila melanogaster with 2 samples.

Results

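The 4 immunoglobulin superfamily genes kirre, rst, sns and hbs encode the surface proteins with which Drosophila myoblasts recognise each other before they fuse. Their binding by the LIM homeodomain factor Apterous was mapped by chromatin immunoprecipitation in whole embryos. The genes were chosen by their peak numbers in these data, kirre for its many peaks, so every count here is a description and none carries a test. A peak was given to a gene when its summit lay inside the gene or had that gene's start site as its nearest protein-coding start site. Of 3184 peaks in the conservative list, which pools both replicates, kirre held 17 and rst 1, and sns and hbs held 0. The rst peak is also 1 of the 17, because rst lies within the span of kirre, so the 4 genes hold 17 distinct peaks of 3184. These genes are 4 of 13968 protein-coding genes, of which 17.4% had a conservative peak by the same rule, against 2 of the 4 here.

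The material was 1 group of 2 biological replicates of embryos aged 0 to 24 h from the strain ap-GFP, which carries an ap-eGFP fusion, and the precipitation used an antibody to GFP. Every cell type of the embryo is mixed in each sample, so the lists do not say in which cells a site was bound, and no untagged or input sample was analysed here. Peak values are the deposited signals of the authors' caller, and have no stated unit. Read totals are not in the peak lists, so the depth behind each signal is unknown, and the intervals on shares reflect only how many peaks were counted. A signal is quoted for the pooled list and, from each replicate's list of all ranked candidates, as the highest signal among that replicate's peaks overlapping the pooled one. Each replicate's thresholded list rests on that replicate's library alone, so passing it may reflect consistency within 1 library, and a peak thresholded in both replicates met 2 such separate thresholds.

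Embryonic muscles form when a founder cell, which carries the identity of the future muscle, fuses with fusion-competent myoblasts. Founders display Kirre (Dumbfounded) and its paralogue Rst (Roughest), which can stand in for each other, while fusion-competent cells display Sns (Sticks and stones) and its paralogue Hbs (Hibris), and the pairs bind across the cell contact. Kirre and Rst resemble the vertebrate Neph1 proteins and Sns and Hbs resemble nephrin, and the same pairs build the slit diaphragm of the fly's filtering nephrocytes. Apterous is known from the dorsal compartment of the wing, from subsets of neurons and from a subset of body wall muscles of the embryo.

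Sequence around 4 of the kirre summits is printed here, picked by strength or by motif. These windows were not picked as typical of the 17 summits, of which only 2 have TAATTA and 3 a Mef2 match within 50 bp. Each line gives 101 bases of the + strand, 50 on each side of the summit and the summit itself, from the RefSeq release 6 genome (dm6). The windows are, in order, that of the strongest peak nearest to a kirre start site, that of the strongest peak in a run of closely spaced peaks, and those of the peaks holding TAATTA, the core sequence that LIM homeodomain proteins recognise. Capitals mark TAATTA and the consensus site of the muscle factor Mef2.
chrX:3097163-3097263: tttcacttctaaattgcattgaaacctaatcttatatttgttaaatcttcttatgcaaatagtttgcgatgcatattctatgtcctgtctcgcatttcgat
chrX:3022583-3022683: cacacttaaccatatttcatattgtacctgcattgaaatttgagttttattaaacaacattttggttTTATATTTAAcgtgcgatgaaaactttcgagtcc
chrX:3019698-3019798: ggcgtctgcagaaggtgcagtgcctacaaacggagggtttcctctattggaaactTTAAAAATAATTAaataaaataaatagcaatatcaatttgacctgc
chrX:3109014-3109114: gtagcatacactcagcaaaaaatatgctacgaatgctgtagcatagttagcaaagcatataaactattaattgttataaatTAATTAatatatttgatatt
The strongest of the 4 windows has neither site. In the third, the Mef2 match begins 5 bp after the summit and runs into the TAATTA, which begins 12 bp after it. In the second the Mef2 match begins 17 bp after the summit, and in the fourth TAATTA begins 31 bp after it.

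kirre (FBgn0028369) covers X:2740384-3134532 on the + strand, 394 kb and the fifth longest protein-coding span of the annotation. Its 7 transcripts start at 6 sites in 4 places, at the left end of the gene and 249, 359 and 388 kb further on. The first coding base, 3129278, lies 389 kb from the first start site, and all 17 conservative summits lie before it. Each of the 17 was in a kirre intron. Nested in the span of kirre are 21 protein-coding genes, which include rst and the eye pigment transporter gene w (white). For 10 of the 17 summits a kirre start site was the nearest protein-coding one. For the other 7 it was that of a neighbouring or nested gene, and with that stricter rule kirre held 10 peaks and rst, sns and hbs 0, against 15.8% of protein-coding genes with at least 1.

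**Figure D1:**
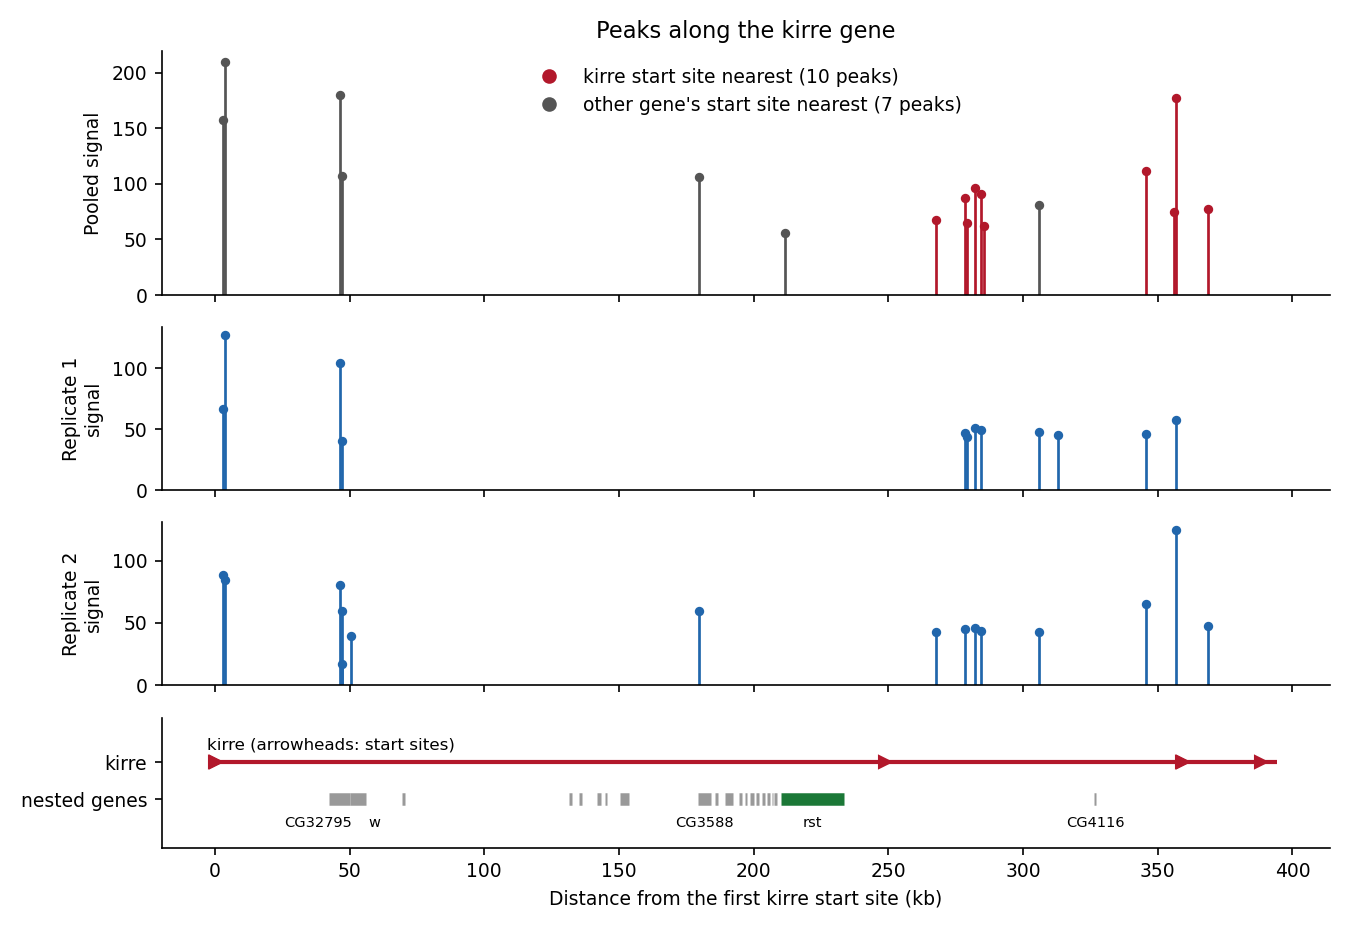
Peaks along the kirre gene by distance from its first start site in kb. The upper panel shows the pooled signal of the 17 conservative peaks (red, kirre start site nearest; grey, another gene's), the middle panels the thresholded peaks of each replicate, and the lowest panel kirre with its start sites above the nested genes; 10 peaks stand between the start sites at 249 and 359 kb, and none lies over the last start site.

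The strongest peak in kirre stood near its left end, beside another, and both were nearest to start sites of a neighbouring gene. Within 4 kb of the first start site lay X:2744183-2744304, with a pooled signal of 209 and replicate signals of 127 and 84.2 (mean 106 ± 30.6, SD, n = 2). Its summit was 178 bp upstream of a start site of Syx4, a syntaxin gene that begins inside the first long intron of kirre and reads the other way. The peak beside it, X:2743242-2743361, had 157 pooled and 66.3 and 88.4 in replicates 1 and 2, and lay 347 bp upstream of another Syx4 start site, in an intron of both genes. Both peaks were in the thresholded lists of both replicates, and the stronger of them took place 423 of 3184 by pooled signal.

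Another pair of peaks stood in an intron of CG32795, a nested gene. X:2786704-2786818 had a pooled signal of 179, with 105 and 80.3 in the replicates, and X:2787331-2787626 had 107, with 40.7 and 60.0. Their summits lay 2587 and 1843 bp from the nearest CG32795 start site, and the weaker window holds a Mef2 consensus match. The pair was thresholded in both replicates. Replicate 1 was higher at the stronger peak and replicate 2 at the weaker one.

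Toward the middle of the gene the peaks were sparse. No conservative summit lay in the 132 kb between the CG32795 pair and X:2919820-2920115, which had a pooled signal of 106 and 43.1 and 60.0 in the replicates. That summit was 151 bp upstream of a start site of the nested gene CG3588, in an intron of it, and only replicate 2 had it in its thresholded list. The next, X:2951772-2952067, is the peak inside rst described further on.

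Downstream of the second kirre start site the peaks crowded together, and most had kirre as their nearest gene. From X:3007817 to 3025887 stood 6 peaks whose summits spanned 17.8 kb, all in 1 kirre intron and 18914 to 36689 bp from the start site at 2989051. Their pooled signals were 67.8, 87.1, 65.2, 96.4, 91.0 and 61.7 from left to right. The strongest, X:3022485-3022780, had 51.4 in replicate 1 and 46.0 in replicate 2 (mean 48.7 ± 3.82, SD, n = 2). Of all 3184 conservative summits, 82 (2.58%) opened a 20 kb stretch with as many summits or more, and the median stretch held 2 and the fullest 13. That stretch was the fullest of kirre, itself chosen for its many peaks. Its place near the upper end of these lists follows in part from that choice and is a description only.

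Of those 6 peaks, 3 were thresholded in both replicates: X:3018730-3019025, X:3022485-3022780 and X:3024561-3024856. Replicate signals at the first were 46.6 and 44.9, and at the last 49.6 and 43.8, so the replicates differed little at all 3. X:3007817-3008112 had 27.1 and 42.7 and was thresholded in replicate 2. X:3019600-3019895, the peak with TAATTA overlapped by a Mef2 match, had 43.8 and 26.0 and was thresholded in replicate 1. X:3025592-3025887 had 35.5 and 25.2 and was thresholded in neither.

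Further along the same stretch, X:3046015-3046310 had a pooled signal of 80.6 and 47.6 and 43.1 in the replicates. The start site of the nested gene CG4116 was nearest to it, 21319 bp away. X:3085863-3086158 had 111 pooled, with 46.3 and 65.0, and lay 13539 bp upstream of the third kirre start place. Both were thresholded in each replicate.

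Just upstream of the start site at 3099550 stood the strongest peak with kirre as its nearest gene. X:3097140-3097270 had a pooled signal of 177, place 568 of 3184, and its summit was 2337 bp upstream of that start site. Its replicate signals, 57.9 and 125 (mean 91.2 ± 47.1, SD, n = 2), were the farthest apart of the 17, with a log2 ratio of replicate 2 to replicate 1 of 1.11. The peak beside it went the other way: X:3096337-3096632, with 74.3 pooled, had 49.2 in replicate 1 and 24.6 in replicate 2, and passed neither replicate's threshold nor the less strict list. These neighbours lay 728 bp apart, summit to summit. The last conservative peak, X:3108916-3109211, had 77.4 pooled and 31.7 and 47.5 in the replicates, stood 9482 bp downstream of the start site at 3099582, and holds both TAATTA and TAATTG.

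**Figure D2:**
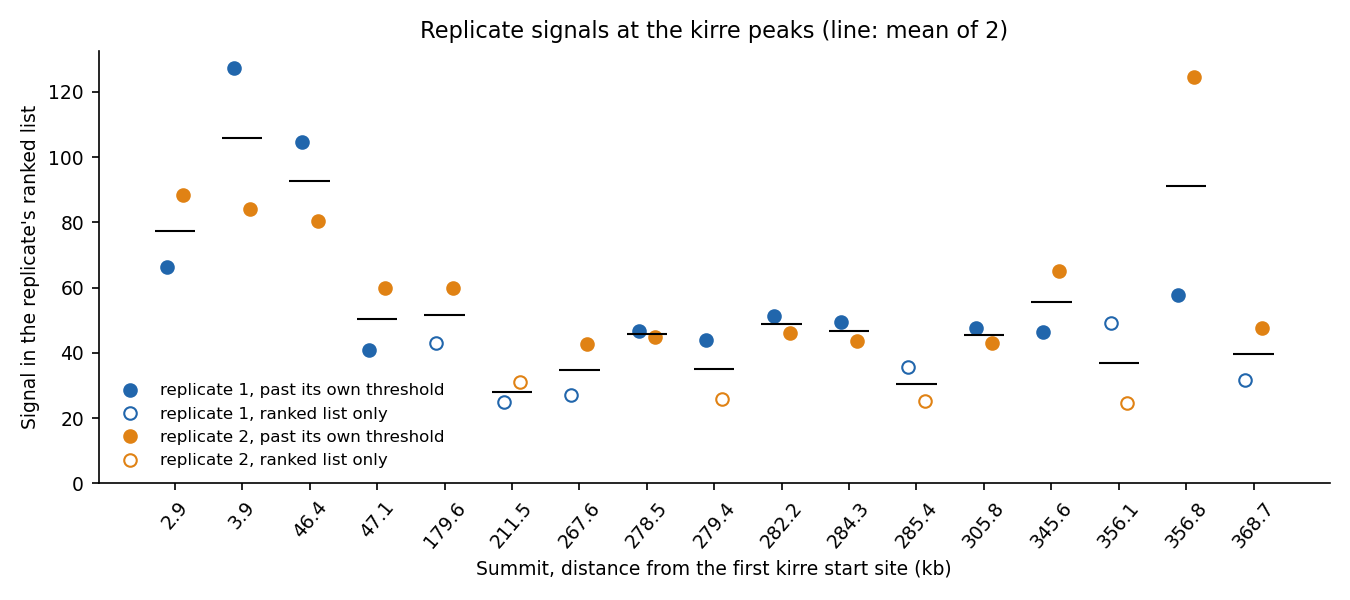
Signal of each replicate at the 17 conservative kirre peaks, in order of distance from the first start site (kb), with a line at the mean of the 2 values. Filled points passed that replicate's own threshold; the 2 values lie near each other between 278.5 and 284.3 kb apart from the peak at 279.4 kb, and farthest apart at 356.8 kb.

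Peak density differed along the gene. From the second to the third start place, 110 kb with 1 nested gene, kirre held 10 conservative peaks or 9.05 per 100 kb. The first 249 kb, with 20 nested genes, held 6 or 2.41 per 100 kb. The 29.1 kb up to the last start site held 1, or 3.44 per 100 kb. The 5.89 kb from there to the end, which contain all the coding sequence, held 0. That stretch is too short for a count of 0 to be read as depletion. The weaker candidates did not crowd in the same measure: replicates 1 and 2 had 78.7 and 106 ranked peaks per 100 kb in the second stretch, and 60.7 and 87.3 per 100 kb in the first. Genome-wide the values were 60.1 and 74.8 ranked peaks and 2.31 conservative peaks per 100 kb.

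By number of peaks kirre ranked first of all protein-coding genes, and its length has to be read beside that rank. Over its whole span it had 4.31 peaks per 100 kb. Over the 97.3 kb of the genome that is nearer to a kirre start site than to any other protein-coding one, it had 10.3 per 100 kb. Of 87 protein-coding genes spanning 100 kb or more, 47 had a peak. Over all 87, those without a peak included, the median was 1 peak and the median density 0.649 per 100 kb. None of the other genes of that length had more peaks than kirre, and 5 were denser. Among all genes, 11543 had 0 conservative peaks, 1752 had 1 and 68 had 5 or more.

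**Figure D3:**
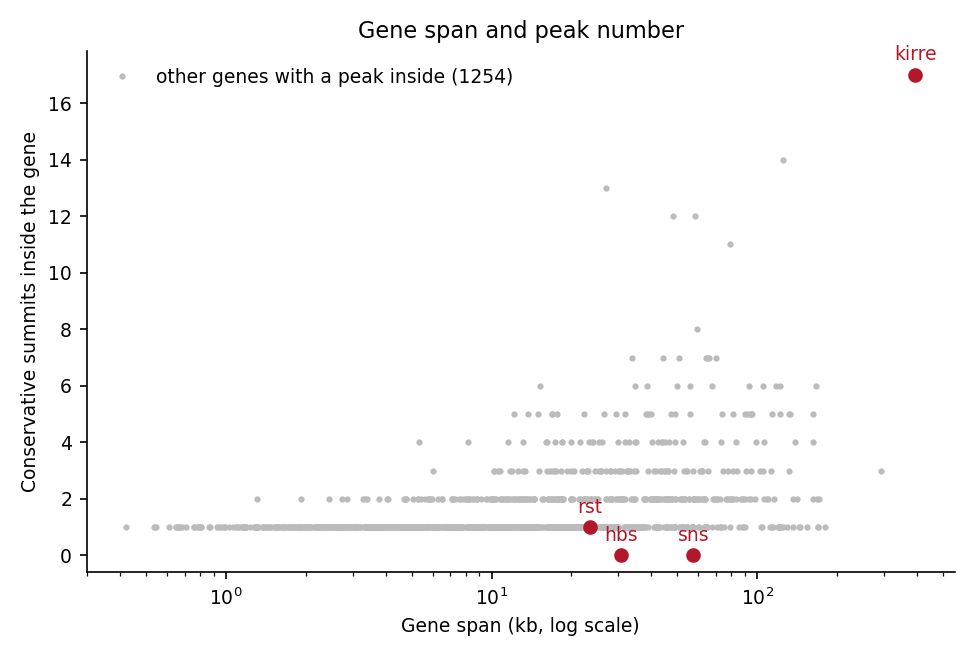
Number of conservative summits inside each protein-coding gene against its span in kb on a log scale. Red points are the 4 adhesion genes and grey points the other genes with at least 1 summit inside; kirre, with 17 summits in 394 kb, is at the upper right, and sns and hbs lie on the zero line.

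Counted by nearest start site, kirre and chinmo, a zinc finger gene of neuronal timing, had 10 peaks each. The genes with more were CHES-1-like, a forkhead gene, with 13, shn, the Schnurri zinc finger gene of Dpp signalling, with 12, and CG43245 with 11. These genes have smaller territories than kirre: 48.7 kb for CHES-1-like, 47.6 kb for shn, 52.2 kb for CG43245 and 53.7 kb for chinmo, against 97.3 kb for kirre. Their likeness to kirre lies in this count alone.

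In strength the kirre peaks were ordinary. Their median pooled signal was 91.0 (range 55.4 to 209), against 93.5 for the 3167 other conservative peaks. In replicate 1 the 17 ran from 24.8 to 127 with a median of 46.6, against 47.5 elsewhere, and in replicate 2 from 24.6 to 125 with a median of 46.0, against 48.7. Both replicates had a thresholded peak at 10 of the 17 (58.8%, exact binomial 95% interval 32.9 to 81.6), against 48.0% of the others. Replicate 2 was higher at 8 of the 17, and the median log2 ratio of replicate 2 to replicate 1 was -0.05 with an SD of 0.58 across the 17, against 0.03 and 0.43 across the others. Spearman's rho between the replicates was 0.556 across the 17 peaks and 0.785 across the 3167 others, as a description only, since the peaks of a replicate share 1 library.

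Few kirre summits stood at start sites, though 17 peaks leave a wide interval that reaches the share of the other peaks. Summits no more than 500 bp from any annotated start site made up 3 of the 17 (17.6%, exact binomial 95% interval 3.80 to 43.4), against 42.4% of the other conservative peaks. Those 3 were the Syx4 pair and the CG3588 peak, so 0 of the 17 lay within 500 bp of a start site of kirre itself. GC content over the summit windows had a median of 30.7% (range 19.8 to 50.5), the same as in the other peaks. Peaks narrower than 200 bp were 4 of the 17 (23.5%), against 14.8% of the others.

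Motif matches were few. TAATTA occurred within 50 bp of 2 of the 17 kirre summits (11.8%, exact binomial 95% interval 1.46 to 36.4), against 11.4% of all 3184, and TAATTG at 1, against 11.6%. Both strands were searched. The Mef2 consensus was found at 3 of the 17 (17.6%, exact binomial 95% interval 3.80 to 43.4), against 7.85% of all. That interval includes the 7.85%, so the count was not read as an excess. Of its matches, 1 overlapped TAATTA. The E-box CATATG, a site type of basic helix-loop-helix factors, had 0 matches at the kirre summits, against 3.71% of all windows. Another E-box, CAGCTG, also had 0, against 3.23%. The sequence TCAAGTG, a site of the heart and muscle factor Tinman, was at 0, against 1.38%. The DREF site TATCGATA was likewise at 0, against 0.974%. For the GAGA factor repeat GAGAG the kirre count was 0, against 8.57%. A count of 0 among 17 allows a share of up to 17.6% (3 divided by 17, an approximate 1-sided 95% limit). That limit takes the peaks as independent. It is above each of these values, so the counts of 0 were not read as a shortfall.

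The replicates' own lists drew nearly the same picture of kirre. Replicate 1 had 12 thresholded peaks there and replicate 2 had 15, and the less strict pooled list had 15. For rst, sns and hbs all 3 lists had 0. The less strict list, though longer with 3289 peaks against 3184, does not contain the whole conservative list. It lacked X:3096337-3096632 and the peak inside rst. The shares of protein-coding genes with a peak were 12.2% in replicate 1, 13.5% in replicate 2 and 18.1% in the less strict list, against 1 of these 4 genes in each. Peaks outside the conservative list were rare: replicate 1 added X:3053371-3053646, with 45.0 there and 16.0 in replicate 2, and replicate 2 added X:2790716-2790991, in the coding sequence of w, with 39.4 there and 8.37 in replicate 1. Replicate 2 also split off a shoulder of the second CG32795 peak, X:2787466-2787741, at a signal of 17.4.

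rst (FBgn0003285), which also sorts the cells of the developing eye, lies at X:2950399-2973834 on the - strand, inside kirre, and spans 23.4 kb. Its single conservative peak, X:2951772-2952067, was in the 3′ UTR of rst and in a kirre intron, and the start site of CG3603 was nearest, 3886 bp away. The pooled signal was 55.4, the lowest of the 17, with 24.8 and 31.2 in replicates 1 and 2 (mean 28.0 ± 4.49, SD, n = 2). It passed the irreproducible discovery rate (IDR) threshold narrowly, with a score of 832 where 830 is the lowest passing one and an IDR of 0.00991. Neither replicate nor the less strict list had it among their thresholded peaks. The first candidate below the threshold in rst, X:2956751-2957046 in an intron, had a pooled signal of 51.7, a score of 747 and an IDR of 0.0159.

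sns (FBgn0024189), the nephrin-like partner on fusion-competent cells, lies at 2R:8798489-8856091 on the + strand and spans 57.6 kb. Its candidate closest to the threshold, 2R:8800820-8801115, was intronic and 2479 bp from the start site. Its pooled signal was 48.6 and its replicate signals 19.8 and 25.6, with a score of 489 and an IDR of 0.0661. Replicates 1 and 2 had 51 and 59 ranked candidates at sns, the strongest of them 25.5 and 27.8, and none passed.

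hbs (FBgn0287864), the paralogue of sns, lies at 2R:15011396-15042134 on the + strand and spans 30.7 kb. Its candidate closest to the threshold, 2R:15031739-15032034 in an intron, had a pooled signal of 30.2, replicate signals of 17.8 and 14.9, a score of 212 and an IDR of 0.307. A stronger one, 2R:15009214-15009509, lay 2034 bp from the start site in intergenic DNA, with 54.9 pooled and 33.9 and 13.3 in the replicates. Its score was only 38 and its IDR 0.806. There the replicates lay farther apart than at the sns and rst candidates given above.

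Among all ranked candidates, most of them below the thresholds, the 4 genes had similar medians. The median signal of their ranked candidates was 12.9 in replicate 1 and 11.3 in replicate 2 at kirre, 15.6 and 10.1 at rst, 12.2 and 12.1 at sns, and 14.1 and 13.4 at hbs, against 13.3 and 11.3 over all candidates. The density of candidates, in the same order of replicates, was 68.0 and 93.4 per 100 kb of kirre, 51.2 and 81.1 of rst, 86.8 and 99.0 of sns, and 39.0 and 61.8 of hbs. They differed in the upper tail, as the choice of the genes would have it. The highest signals were 127 and 125 at kirre, 28.4 and 31.2 at rst, 25.5 and 27.8 at sns, and 33.9 and 25.7 at hbs. kirre had many more candidates, 270 and 368, against 18 and 24 at rst, 51 and 59 at sns, and 19 and 28 at hbs. Highest signals of sets so unequal in size are not directly comparable. Of the 270 candidates of replicate 1 at kirre, 4.44% were thresholded, against 2.39% of all its candidates, and of the 368 of replicate 2, 4.08%, against 2.15%. Candidates that met one of the other replicate made up 68.9% and 52.4% at kirre, 61.1% and 45.8% at rst, 70.6% and 62.7% at sns, and 52.6% and 39.3% at hbs, against 60.0% and 48.1% overall.

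**Figure D4:**
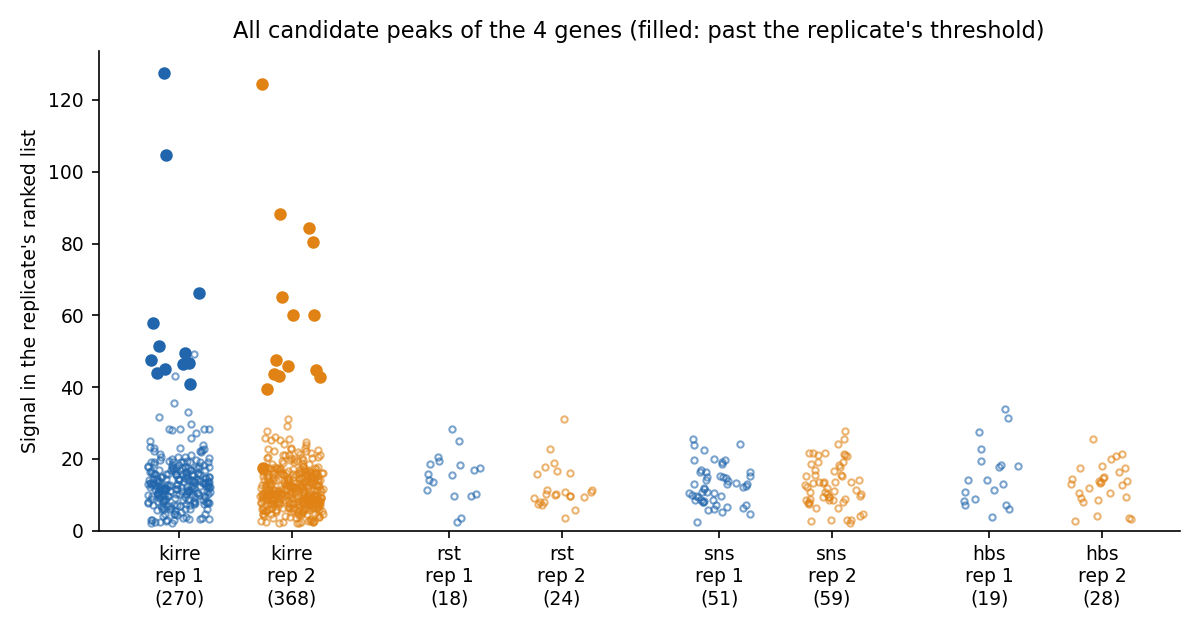
Signal of every ranked candidate peak of the 4 genes in each replicate, with the number of candidates in brackets and points spread sideways at random for legibility. Filled points passed the replicate's threshold; the bulk of points lies below 30 in all 8 columns, and only kirre has points above 40.

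Peaks were also found at other genes known from the genetics of myoblast fusion. Of 33 other genes known to act in myoblast fusion, 12 had a conservative peak nearest to their start site (36.4%), against 15.8% of all protein-coding genes. Their strongest peaks had pooled signals of 64.9 to 245, with a median of 92.2. By the same nearest-start rule 7 of the 33 had a thresholded peak in replicate 1, against 11.0% of all protein-coding genes, and 9 in replicate 2, against 12.2%. The 7 included dia and the 9 included lmd, neither of which had a conservative peak nearest to its start site. Rac2, WASp, Abi and Pak, all among the 12, had a thresholded peak in neither replicate by that rule. The list was drawn up with earlier results of these data known, so these shares are not independent evidence about fusion genes. All 12, most of them named after their values were seen, fall at several steps of fusion: mbc, Rac2, Pak and Pak3 in Rac signalling, siz as an exchange factor for Arf6, WASp, Vrp1, Abi and Arp2 in actin branching, the GTPase gene Rap1, the muscle transcription factor gene Mef2 and the titin-like gene sls. Not all of the strongest peaks lay inside these genes. At Rac2 and Vrp1 it was in an intron of another gene, CG42458 and mei-S332. At WASp, Abi, Rap1 and sls it was in intergenic DNA.

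The strongest of these peaks was at Pak3, a Rac-regulated kinase gene, with 245 pooled and 111 and 142 in the replicates, in its intron and 4436 bp from its start site. sls had 177 pooled and 68.3 and 107, in intergenic DNA 261 bp away. At siz the pooled signal was 132 and the replicates were nearly equal, 65.6 and 64.9. The peak at Mef2, in its 5′ UTR, had 128 pooled and 83.5 and 53.3. mbc, which encodes a Rac exchange factor acting downstream of the founder cell receptors, had 4 peaks, the most of the 33, the strongest with 104 pooled and 40.7 and 62.5. Only Pak3 exceeded the strongest kirre peak, and sls and the strongest peak nearest to a kirre start site both had 177.

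A further list held 4 genes of the slit diaphragm or of cytoplasmic partners of the 4 adhesion proteins, together called slit diaphragm genes here. They were listed with earlier results of these data known. Of these 4, 4 had a conservative peak nearest to their start site, against 15.8% of all protein-coding genes. Src64B, a Src-family kinase gene, had 6, the strongest with 192 pooled and 96.2 and 90.5 in the replicates, 186 bp from a start site. cindr, an adaptor of the CD2AP family, had 4, with 160 pooled and 77.3 and 84.1 at the strongest. pyd, the homologue of the junction scaffold ZO-1, had 3, all in the gene, with 71.6 pooled and 32.7 and 38.3 at the strongest, 29458 bp from a start site. Mec2, a podocin-like gene, had 1, with 77.7 pooled and 33.4 and 48.3. By the same rule 2 of the 4 had a thresholded peak in replicate 1, against 11.0% of all protein-coding genes, and 4 in replicate 2, against 12.2%. A list of 4 genes chosen this way shows nothing about slit diaphragm genes as a group.

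**Figure D5:**
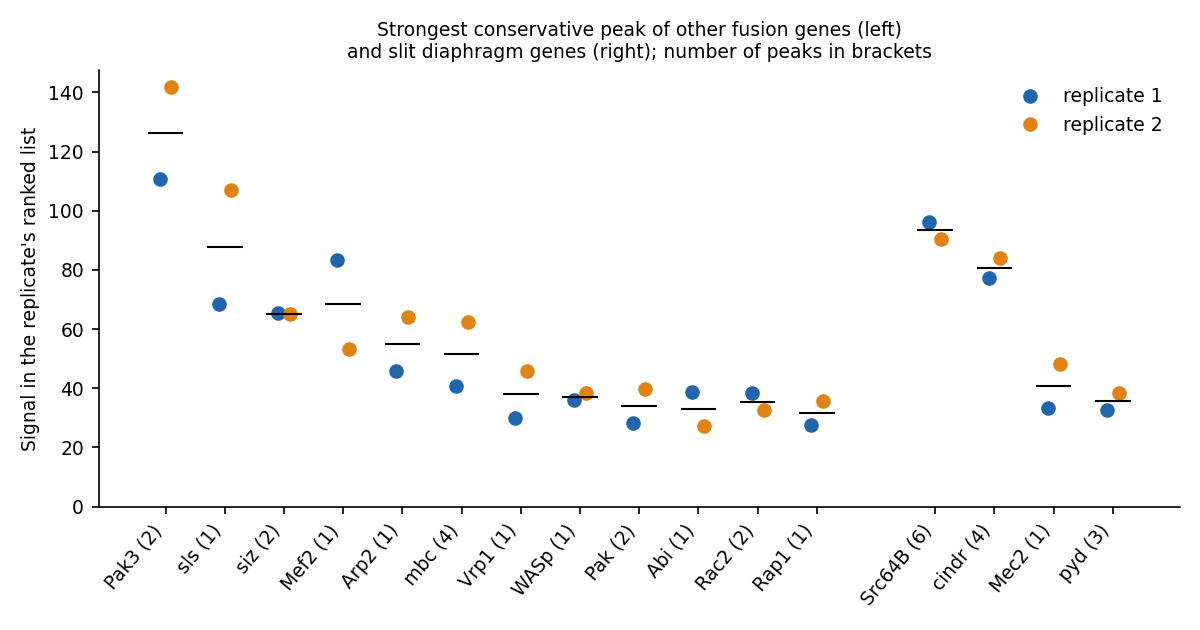
Replicate signals at the strongest conservative peak of each fusion gene (left) and slit diaphragm or partner gene (right) with such a peak. A line marks the mean of 2, and the number of peaks is in brackets. Pak3, with 111 and 142, is highest, and Rap1, with 27.4 and 35.7, is lowest by mean.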

How the data were processed

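Chromatin from 2 biological replicates was sonicated to 200 to 800 bp and precipitated with anti-GFP, per the labels. Peaks were mapped to dm6, per the file headers; no aligner or peak caller is named (not given in the sources used here). Each peak has the caller's signal as deposited, a score, and a global IDR deposited as −log10. The score fell as the IDR rose among the candidates given above, and was read here as a rescaled IDR. The lowest score in the conservative list was 830. The authors pooled both replicates for the conservative and less strict lists, while each replicate's own lists were made from its own library, per the file headers; what was compared within that library to obtain its IDR is not stated there.

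Summits were assigned to Ensembl release 115 genes (18277 genes, 13968 protein-coding) by position and by distance to the nearest protein-coding start site, in Python 3.11.15 with numpy 2.4.6, pandas 2.3.3, scipy 1.17.1 and matplotlib 3.10.9. The spans of the 4 genes were equal in RefSeq. Older list names, Sra-1 and Arf51F, were matched through RefSeq synonyms. Motifs were read within 50 bp of a summit. The assignment was tested on simulated summits. The members and the gene lists were chosen with earlier results of these data known. Named genes were the members, nested or nearest genes, the 5 with most peaks by nearest start site, the 4 fusion genes with the strongest peak or those with 3 or more peaks, and slit diaphragm genes with a peak. The other fusion genes with a conservative or replicate peak were named after their values were seen.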

Additional observations from a re-analysis of the deposited data

How the results depend on the processing

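The kirre count of 17 was 15 in the less strict list, 12 to 15 when 1 replicate was left out (the other replicate's own list, whose IDR rests on that library alone), 17 inside the gene alone, and 17 after overlapping peaks were merged. It was 14 without peaks within 500 bp of another gene's start site, an alternative chosen after seeing the data. It moved to 10 when only the nearest protein-coding start site, or the nearest start site of any gene, counted, and to 8 among conservative peaks above the median signal. The rst count of 1 was 0 in the less strict list, with either replicate left out (0 to 0), by nearest protein-coding start site, by nearest start site of any gene and among peaks above the median signal. The counts of 0 for sns and hbs were 0 under every alternative run. TAATTA was at 23.5% of the kirre summits within 100 bp, against 11.8% within 50 bp. No share of all conservative peaks within 100 bp is given here, so the 23.5% is not a sign of enrichment. The fusion list had 15 genes with a peak inside or within 2000 bp, against 12 by nearest start site. No share of all protein-coding genes by the wider rule is given here, so the 15 cannot be set against one. The replicates were pooled by the authors and there is 1 group. No paired analysis was possible because the study has no second group. The depth of the libraries is unknown, so a count of 0 at sns or hbs is a limit of these lists and thresholds, not a measure of absence.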
